A study of Mus musculus with 29 samples.

Results

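The data cover 8 genes whose products hold back the growth kinase mTORC1 (mechanistic target of rapamycin complex 1) or the cap-dependent translation that it drives, out of 48023 genes in the count table. The rule names the genes and uses no measured value: the REDD proteins (Ddit4 and Ddit4l), the sestrins (Sesn1, Sesn2 and Sesn3), the arginine sensor CASTOR1 (Castor1) and the 4E-binding proteins (Eif4ebp1 and Eif4ebp2), each found through its Ensembl identifier. The 8 genes were, however, chosen with earlier results of these data known. All 8 passed the filter on low counts in every fit. RNA was sequenced from tibialis anterior (TA) muscle of 29 male mice, labelled C57BL/6J and 2 to 3 months old, 1 library per mouse. M-p110αKO and M-p110βKO mice carried Cre under the human alpha-skeletal actin promoter, which is active in skeletal muscle fibres and not in the other cells of a muscle, together with floxed p110α (exon 1) or floxed p110β (exon 2), the catalytic subunits of PI3-kinase. Controls are labelled WT and are, by the study's methods, the floxed mice of the same line. Mice were fed or fasted for 24 h. In the p110α line there were 8 fed mice (4 of each genotype) and 7 fasted mice (4 controls and 3 M-p110αKO). In the p110β line there were 7 fed and 7 fasted mice, with 3 controls and 4 M-p110βKO in each state. A genome scan described in the study's methods found the p110β-floxed mice to be less fully C57BL/6 than the p110α-floxed mice, so line and genetic background cannot be told apart.

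Insulin and growth factors act through PI3-kinase and AKT to switch on mTORC1, which phosphorylates the 4E-binding proteins and so frees the cap-binding factor eIF4E for translation. REDD1 (Ddit4) and REDD2 (Ddit4l) act on mTORC1 through the TSC complex, sestrins act through the GATOR complexes that read leucine and stress, and CASTOR1 does the same for arginine. In muscle, fasting lowers protein synthesis, and FoxO factors, glucocorticoids, ATF4 and p53 are known to drive some of these genes.

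Libraries held 5351935 to 11653239 assigned reads with a median of 7828636, and the 8 genes held between 12 (Castor1) and 4154 (Ddit4l) reads in a single library. Levels are given as CPM, which are counts divided by library size after TMM scaling over all 29 libraries. A gene is called at an adjusted p under 0.05 in edgeR's quasi-likelihood test, with Benjamini-Hochberg adjustment over all genes tested, and log2 fold changes are given with their SE. The 8 listed markers of skeletal fibres summed to between 127600 and 182100 CPM in every library. The 5 adipocyte markers summed to 94.3 and 93.7 CPM in libraries 23 and 24 (fasted p110β-line controls) and to at most 15.8 CPM elsewhere, with 1.57 CPM in library 25, the third fasted control of that line. Library 25 itself stood apart in Ddit4, Ddit4l and Sesn1. Results of the 8 genes that turn on these 3 libraries are given with and without them. Counts and medians over lists of other genes use all libraries. In bulk muscle, fewer cells of a type and less RNA per cell cannot be told apart.

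The largest calls among the members were the fasting rises of Ddit4, Sesn1 and Eif4ebp1, and the sequences before the starts of Ddit4 and Sesn1 are shown for the motifs of the factors named above. RefSeq promoters (GRCm38.p6) were found for 7 of the 8 genes, all but Eif4ebp1. The 250 bases before each of 8 starts, since Sesn1 has 2, were searched on both strands for the forkhead spellings GTAAACA and ATAAACA and GCAAACA and ACAAACA, the glucocorticoid inverted repeat GNACANNNTGTNC, the ATF4 composite TGATGNAA, the E-box CACGTG and the cyclic AMP element TGACGTCA, none of which contains another. Only the downstream start of Sesn1 held a match, ACAAACA on the opposite strand, beginning 32 bases before the start. Of 32851 RefSeq promoter windows of the same length, 5.84% hold that spelling, 15.7% any of the 4 forkhead spellings, 0.387% the glucocorticoid repeat, 3.45% the ATF4 composite, 6.02% the E-box and 1.55% the cyclic AMP element. Below are the stretches outside annotated exons, with matches in capitals, 5′ to 3′ on the strand of the gene: for Ddit4 186 bases on the minus strand at chr10:59951835-59952020, and for the downstream Sesn1 start 250 bases on the plus strand at chr10:41887189-41887438. No such match lay in the Ddit4 stretch, which says only that these letters are absent from it.
Ddit4: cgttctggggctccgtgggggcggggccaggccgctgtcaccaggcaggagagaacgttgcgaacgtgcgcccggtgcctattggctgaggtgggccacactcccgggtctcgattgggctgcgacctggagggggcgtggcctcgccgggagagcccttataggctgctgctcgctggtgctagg
Sesn1: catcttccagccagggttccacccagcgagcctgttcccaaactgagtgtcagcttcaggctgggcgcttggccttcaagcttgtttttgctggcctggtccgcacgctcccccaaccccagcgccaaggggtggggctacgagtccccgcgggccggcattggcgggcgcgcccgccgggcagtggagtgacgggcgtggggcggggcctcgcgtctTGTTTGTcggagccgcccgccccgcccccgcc

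Among the REDD genes, fasting raised Ddit4 in the p110β line and left it without a call in the p110α line. Ddit4 (ENSMUSG00000020108, GRCm38 chr10:59949669-59951834, minus strand) encodes REDD1, which is induced by stress and by glucocorticoids. In fed p110β-line controls it stood at 54.1, 24.7 and 28.3 CPM, and in their fasted counterparts at 150 (library 23), 162 (library 24) and 355 CPM (library 25). In fed M-p110βKO it stood at 47.3, 72.9, 52.9 and 79.0 CPM, and in fasted M-p110βKO at 326, 242, 143 and 350 CPM. Fed and fasted libraries of the p110β line did not overlap in either genotype. The log2 fold change of fasting was 2.62 ± 0.36 in controls (adjusted p = 4.0e-05) and 2.05 ± 0.30 in M-p110βKO (4.6e-05), a rise in both.

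In the p110α line, fed controls already held Ddit4 at 173, 179, 250 and 118 CPM, and fasted controls at 237, 184, 261 and 224 CPM. Fed M-p110αKO held 224, 129, 214 and 256 CPM, and fasted M-p110αKO 254, 127.6 and 97.2 CPM. The ranges overlapped between all 4 groups. The log2 fold change of fasting was 0.35 ± 0.27 in controls (adjusted p = 0.343) and -0.33 ± 0.29 in M-p110αKO (0.443), neither a call. Over the 8 groups, the 6 group means from 160 to 265 CPM had overlapping neighbours, and the fed p110β-line groups at 63.0 and 35.7 CPM lay below every library of the others.

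The difference between the lines was tested directly. The fasting response of Ddit4 in controls was 2.26 ± 0.49 log2 units larger in the p110β line (adjusted p = 0.0156), and Ddit4 was the only one of the 8 genes called, against 1.56% of all genes tested. Omission of any 1 library gave adjusted p values from 0.0123 to 0.04999 for Ddit4, with a difference of 1.76 ± 0.46 without library 25 and 2.96 ± 0.52 without libraries 23 and 24. In the knockouts, whose libraries entered the same fit but not that contrast, the difference was 2.38 ± 0.47 (adjusted p = 0.00181). This knockout comparison was added after the data had been seen. Between fed controls Ddit4 was lower in the p110β line, with a log2 difference of -2.29 ± 0.37 (adjusted p = 0.000121), while between fasted controls the value was -0.03 ± 0.33 (0.959). Slow-fibre marker sums moved with the fed groups as well, at 117 to 317 CPM in the fed p110β line against 487 to 1293 CPM in the fed p110α line and 309 to 830 CPM in the fasted p110β line, and their part in the Ddit4 result was not tested.

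Ddit4l (ENSMUSG00000046818, chr3:137621612-137628333, plus strand) encodes REDD2, a relative of REDD1 that is prominent in skeletal muscle. Over the fed controls of both lines pooled it had the highest level of the 8 genes per length, at 117 CPM per kilobase of exon against 67.3 for Ddit4. In fed p110α-line controls the 2 genes were close, at 112 ± 34.6 (SD, n = 4) for Ddit4l against 102 ± 30.8 for Ddit4. Fed p110β-line controls held 124 ± 30.6 (n = 3) against 20.3 ± 9.13. In fed M-p110βKO Ddit4l ran at 403, 448, 429 and 448 CPM and in fasted M-p110βKO at 230, 180, 133 and 238 CPM, with no overlap and a log2 fold change of -1.17 ± 0.31 (adjusted p = 0.00654), a fall. The 5 fibroblast markers summed to 354 to 522 CPM in the former and 148.5 to 219 CPM in the latter, and their part in it was not tested. In p110β-line controls the fed values of 446, 367 and 268 CPM were followed by 130 (library 23), 87.4 (library 24) and 383 CPM (library 25) when fasted, so that library 25 alone lay in the fed range. The log2 fold change there was -0.86 ± 0.36 (adjusted p = 0.0837), without library 25 it was -1.75 ± 0.24 (3.7e-05), and without libraries 23 and 24 it was 0.09 ± 0.27 (0.861). Whether Ddit4l fell in fasted controls of the p110β line therefore rests on which of these 3 libraries is used.

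In the p110α line Ddit4l was the only member called between genotypes. Fasted controls held 430, 331, 290 and 340 CPM and fasted M-p110αKO 201, 224 and 165 CPM, without overlap. The log2 fold change was -0.80 ± 0.23 (adjusted p = 0.0453), and the call was lost on omission of any 1 of the 7 libraries, with adjusted p values from 0.0531 to 0.125 and log2 fold changes from -0.91 to -0.69. In fed mice the same comparison gave -0.21 ± 0.21 (adjusted p = 0.747), and the interaction of genotype and feeding gave -0.59 ± 0.31 (0.389), so a difference between the fed and the fasted comparison was not shown.

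**Figure D1:**
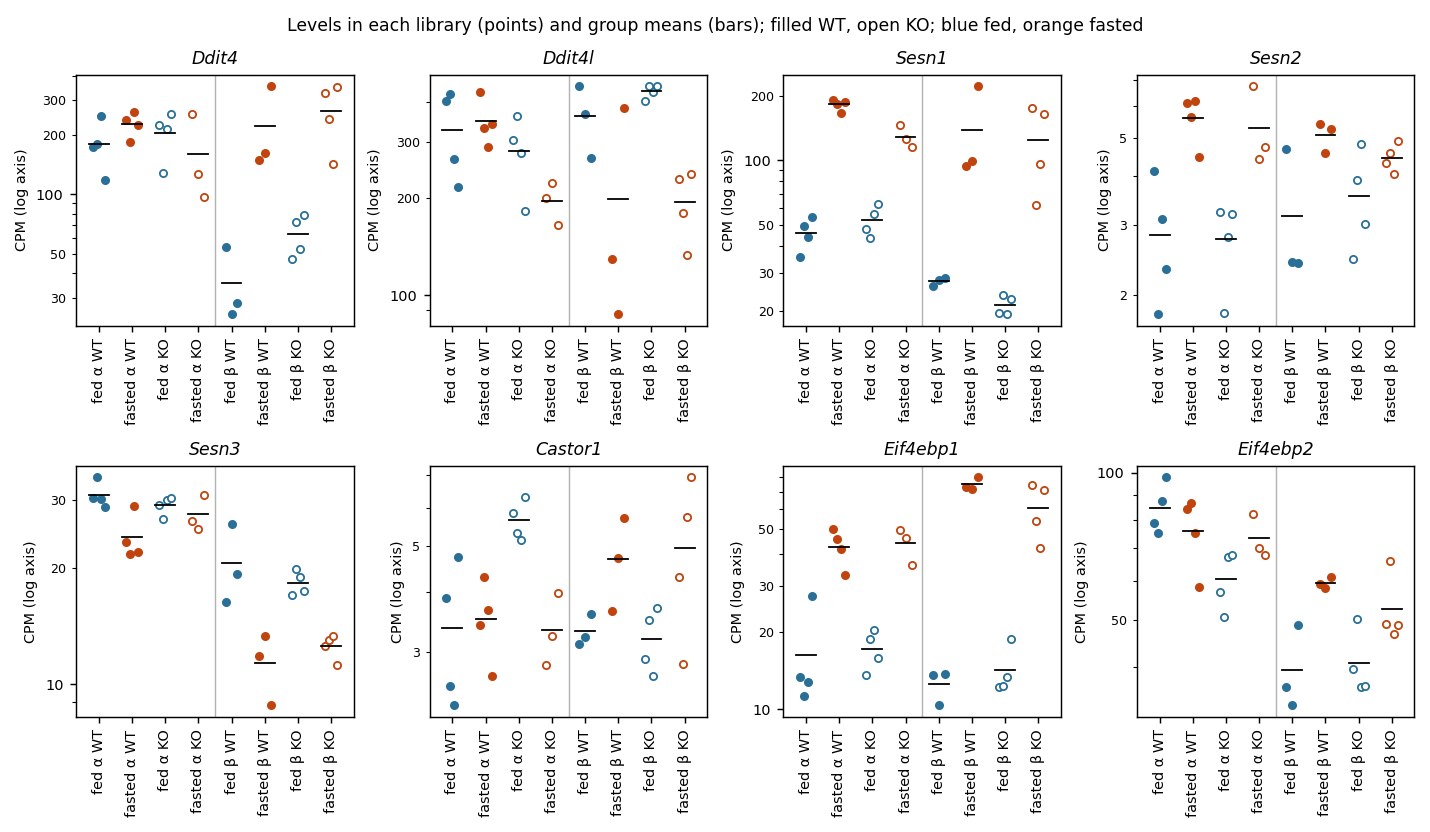
CPM of the 8 genes in each of the 29 libraries on log axes (points, filled for WT controls and open for KO, blue for fed and orange for fasted) with the group mean (bar), the p110α line to the left of the grey line and the p110β line to the right. Ddit4 separates the fed p110β groups from the other 6 groups, while Sesn1 and Eif4ebp1 separate fed from fasted mice in both lines.

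The sestrins did not move as 1 group: Sesn1 rose with fasting in all 4 pairs of groups, Sesn2 rose in the p110α line, and Sesn3 fell in 3 of the 4. Sesn1 (ENSMUSG00000038332, chr10:41809935-41908424, plus strand) encodes a leucine-linked inhibitor of mTORC1 that p53 and FoxO factors are known to induce. Fed controls of the p110α line held 35.5, 49.5, 43.9 and 54.7 CPM and fasted controls 191, 182, 166 and 187 CPM. Fed M-p110αKO held 48.1, 43.6, 56.4 and 62.5 CPM and fasted M-p110αKO 146, 126 and 115 CPM. Fed and fasted groups were far apart in both genotypes, with log2 fold changes of 2.00 ± 0.14 (adjusted p = 2.5e-08) and 1.33 ± 0.14 (8.4e-06).

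All 3 fasted M-p110αKO libraries lay below all 4 fasted controls for Sesn1, with a log2 fold change of -0.47 ± 0.14 that missed the threshold (adjusted p = 0.0545). It passed in DESeq2 (0.0254), in limma-voom (0.0498) and without a filter on low counts (0.00503). The other 12 of 15 alternatives gave no call. Omission of any 1 library gave adjusted p values from 0.0547 to 0.168, and the remaining settings went up to 0.247. The interaction of genotype and feeding was -0.67 ± 0.20 (adjusted p = 0.129, unadjusted p = 0.00321). In the p110β line the fed values were 26.0, 27.6 and 28.4 CPM in controls and 19.5, 23.6, 19.3 and 22.7 CPM in M-p110βKO, and the fasted values were 94.4, 98.9 and 222 CPM (library 25) in controls and 175, 61.97, 95.7 and 164 CPM in M-p110βKO. Sesn1 rose by 2.33 ± 0.34 log2 units in controls (adjusted p = 6.3e-05), by 1.81 ± 0.28 without library 25 and by 3.02 ± 0.33 without libraries 23 and 24. It rose by 2.52 ± 0.30 in M-p110βKO (4.7e-06). The response of the knockouts was 1.20 ± 0.36 log2 units larger in the p110β line than in the p110α line (adjusted p = 0.0303), a call that was lost in limma-voom (0.0610) and on omission of 7 single libraries. That of the controls differed by 0.32 ± 0.37 (0.699).

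Sesn2 (ENSMUSG00000028893, chr4:132492032-132510501, minus strand) encodes the leucine-binding sestrin and is a known ATF4 target, and it was scarce, with 14 to 59 reads per library and 0.858 CPM per kilobase in fed controls against 9.53 for Sesn1. It ran from 1.79 to 4.12 CPM in fed and from 4.48 to 6.17 CPM in fasted controls of the p110α line, with a rise of 1.00 ± 0.25 log2 units (adjusted p = 0.00630), and it rose by 0.98 ± 0.27 in M-p110αKO (0.0154). The latter call was lost without library 6 (0.0523) or library 13 (0.116). In the p110β line the values were 0.65 ± 0.27 in controls (0.0845) and 0.29 ± 0.24 in M-p110βKO (0.347). The lines' responses differed by -0.36 ± 0.38 in controls (0.662) and by -0.68 ± 0.36 in knockouts (0.235), so no difference between them was shown.

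Sesn3 (ENSMUSG00000032009, chr9:14275067-14333101, plus strand), known as a FoxO-inducible sestrin, went the other way. Fed p110β-line controls held 16.3, 26.0 and 19.3 CPM and fasted ones 11.8, 13.4 and 8.83 CPM, and M-p110βKO held 17.0 to 19.9 CPM when fed and 11.2 to 13.3 CPM when fasted. It fell in both, with log2 fold changes of -0.86 ± 0.18 (adjusted p = 0.00160) and -0.57 ± 0.15 (0.00755). In the p110α line it fell in controls, from 30.3, 34.3, 30.1 and 28.8 CPM to 23.4, 21.7, 28.9 and 22.0 CPM (-0.35 ± 0.12, adjusted p = 0.0281), a call lost on omission of library 2, 9, 10 or 12 and without a filter on low counts (0.0864). In M-p110αKO the value was -0.04 ± 0.12 (0.838), and the interaction, at 0.31 ± 0.17 (0.414), was not called. Sesn3 was also lower in the p110β line than in the p110α line, with a log2 difference of -0.55 ± 0.14 between fed controls (0.00713) and of -1.07 ± 0.15 between fasted controls (1.3e-05), and the former call was lost without library 16 (0.0682).

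**Figure D2:**
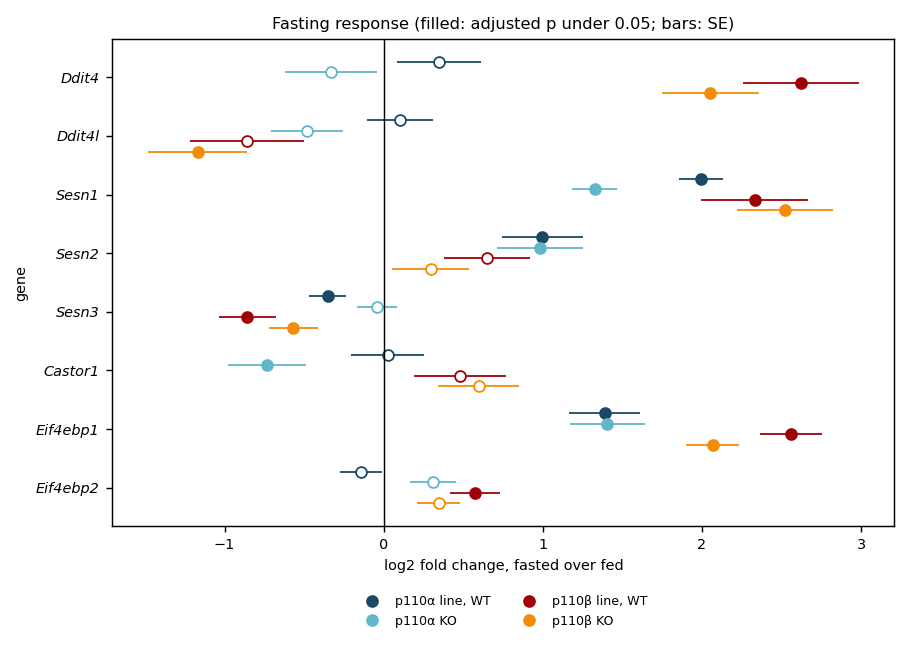
Log2 fold change of fasted over fed mice for each of the 8 genes in the 4 pairs of groups (points, filled where the adjusted p is under 0.05), with SE as bars. Ddit4 lies at 2.62 and 2.05 in the p110β line and at 0.35 and -0.33 in the p110α line, Sesn1 and Eif4ebp1 lie above 1 in all 4 pairs, and Sesn3 lies below 0.

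Castor1 (ENSMUSG00000020424, chr11:4218225-4222409, plus strand), whose product releases GATOR2 when it binds arginine, was as scarce as Sesn2, with 12 to 71 reads per library. In fed mice all 4 M-p110αKO libraries (5.86, 5.32, 5.14 and 6.33 CPM) lay above the 4 controls (3.90, 2.56, 2.33 and 4.74 CPM), and the log2 fold change of 0.70 ± 0.22 did not pass (adjusted p = 0.179, unadjusted p = 0.00494). Fasted M-p110αKO held 2.82, 3.24 and 3.98 CPM. Castor1 fell with fasting in M-p110αKO, with a log2 fold change of -0.73 ± 0.24 (adjusted p = 0.0402), while controls gave 0.03 ± 0.23 (0.948). The interaction of genotype and feeding was -0.76 ± 0.33 (0.290), so a difference between the genotypes was not shown. That call was lost when GC content and length were corrected for (0.0550) and on omission of 5 of the 7 single libraries. In M-p110βKO the value was 0.60 ± 0.25 (0.0711), and the response of the knockouts differed between the lines by 1.34 ± 0.35 (0.0148).

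The 4E-binding proteins bind eIF4E and block assembly of the cap-binding complex. Eif4ebp1 (ENSMUSG00000031490, chr8:27260329-27276674, plus strand) rose with fasting in all 4 pairs of groups. In p110β-line controls it stood at 13.6, 10.3 and 13.7 CPM when fed and at 73.3, 71.6 and 79.8 CPM when fasted, and in M-p110βKO at 12.2 to 18.8 and 42.3 to 74.7 CPM. The 3 fasted controls agreed closely here, libraries 23, 24 and 25 included. The log2 fold changes were 2.56 ± 0.20 (adjusted p = 5.9e-08) and 2.07 ± 0.17 (6.1e-08). In the p110α line controls went from 13.4, 11.3, 12.8 and 27.4 CPM (library 4) to 50.3, 45.8, 42.1 and 33.2 CPM, and M-p110αKO from 13.6 to 20.3 CPM up to 36.4 to 49.7 CPM. The rises were 1.39 ± 0.22 (0.000184) and 1.40 ± 0.23 (0.000485), with no overlap between fed and fasted libraries in either genotype. The difference in response between the lines' controls was 1.16 ± 0.32 and missed the threshold (adjusted p = 0.0637), although it passed in DESeq2 (0.0171), without a filter on low counts and without library 1, 2 or 3. Without library 4, the fed control with the high Eif4ebp1 value, the difference was 0.75 ± 0.27 (0.170). Fasted controls of the p110β line held more Eif4ebp1 than those of the p110α line, by 0.80 ± 0.21 log2 units (0.00470). Without libraries 23 and 24 that difference was 0.93 ± 0.30 (0.0629).

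Eif4ebp2 (ENSMUSG00000020091, chr10:61428491-61452661, minus strand), the second 4E-binding protein, was higher per length than Eif4ebp1 over the fed controls of both lines pooled, at 11.3 against 6.67 CPM per kilobase. By line the values were 14.7 ± 1.74 (SD, n = 4) against 7.39 ± 3.43 in the p110α line. In the p110β line they were close, at 6.84 ± 1.42 (n = 3) against 5.72 ± 0.87. Fasting raised Eif4ebp2 in p110β-line controls from 36.4, 33.5 and 48.9 CPM to 59.2, 58.0 and 61.2 CPM (0.58 ± 0.16, adjusted p = 0.0113), a call lost without library 16 (0.0557) or 17 (0.0567) and without libraries 23 and 24 (0.0618). M-p110βKO gave 0.34 ± 0.14 (0.0554). The p110α line gave -0.14 ± 0.13 in controls (0.439) and 0.31 ± 0.14 in M-p110αKO (0.129). Fed controls of the p110β line held less than those of the p110α line, which ran from 75.2 to 97.8 CPM, with a log2 difference of -1.06 ± 0.16 (4.5e-05). All 4 fed M-p110αKO libraries (57.1, 50.6, 67.2 and 68.0 CPM) lay below those fed controls, with a log2 fold change of -0.48 ± 0.13 that was not called (adjusted p = 0.118) except in DESeq2 (0.0469) and without a filter on low counts (0.0137).

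Counted over the 8 genes, fasting gave 3 rises and 1 fall in p110α-line controls, where 30.1% of all genes tested were called, and 3 rises and 1 fall in M-p110αKO, where 21.5% were. It gave 4 rises and 1 fall in p110β-line controls (26.9% of all genes) and 3 rises and 2 falls in M-p110βKO (37.9%). The median log2 fold change of the 8 genes was 0.23 and 0.13 in the p110α line and 0.61 and 0.47 in the p110β line, controls first, beside 0.00, -0.00, -0.02 and -0.02 over all genes. Between the lines, 3 of the 8 were called in the fasting response of the knockouts (10.7% of all genes), 3 between fed controls (20.3%) and 2 between fasted controls (30.3%). These 3 comparisons were added after the data had been seen, and they share libraries with those within the lines.

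Between genotypes, few of the 8 genes were called and few of all genes were. Fed M-p110αKO against controls gave none of the 8 as called by edgeR (0.611% of all genes), with 2 at an unadjusted p under 0.05, 1 call in DESeq2 and 0 in limma-voom. Fasted M-p110αKO gave Ddit4l alone (6.52%), and the interaction of genotype and feeding in that line gave none (0.483%), with 3 at an unadjusted p under 0.05 and 0 by either other tool. Fed M-p110βKO gave none (0% of all genes in edgeR, with 1060 genes at an unadjusted p under 0.05, 30 calls in DESeq2 and 0 in limma-voom), and Ddit4 was its 1 member at an unadjusted p under 0.05 with a log2 fold change of 0.82 ± 0.34 (adjusted p = 0.488). Fasted M-p110βKO gave none (0.89%) and the interaction in that line none (0.106%), with 0 members at an unadjusted p under 0.05 and 0 by either other tool. Without library 25, Ddit4l was higher in fasted M-p110βKO than in the 2 remaining controls, by 0.87 ± 0.22 (adjusted p = 0.0392), against -0.04 ± 0.33 with it (0.973). Those 2 controls are the libraries with the high adipocyte sum, and without them the value was -0.98 ± 0.25 (0.203).

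**Figure D3:**
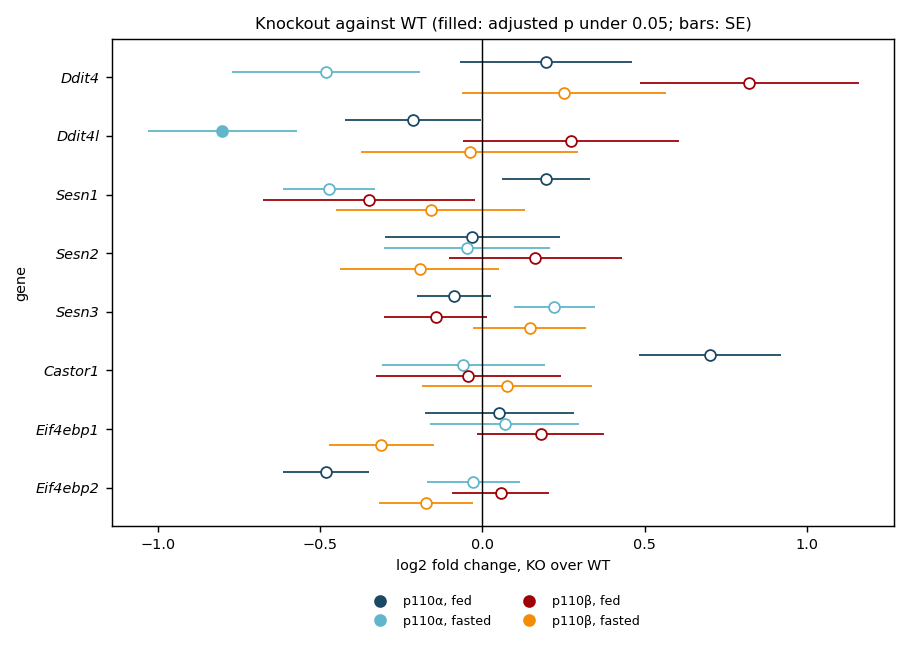
Log2 fold change of KO over WT controls for each of the 8 genes, fed and fasted, in both lines (points, filled where the adjusted p is under 0.05), with SE as bars. The single filled point is Ddit4l in the fasted p110α line at -0.80.

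The deleted genes were not called in these counts, in which all exons of a gene are summed. Pik3ca gave 0.10 ± 0.13 in fed and -0.09 ± 0.14 in fasted M-p110αKO (adjusted p = 0.805 and 0.748), and Pik3cb gave -0.00 ± 0.13 and 0.04 ± 0.14 in M-p110βKO (0.995 and 0.927). The study itself reported less mRNA of the deleted gene in hindlimb muscle of each knockout. Why the counts do not show a fall was not tested, so they do not check the deletions.

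Other genes of the pathway were counted from fixed lists. Of 11 tested genes of the mTORC1 core and its TSC inhibitor, fasting raised 2 and lowered 3 in p110α-line controls and raised 3 and lowered 1 in p110β-line controls. Tsc1, the scaffold of the TSC complex, rose by 0.64 ± 0.11 in the former and 0.64 ± 0.11 in the latter (adjusted p = 0.000251 and 0.000286). Mtor itself was called as higher in both and in the knockouts of both lines. Its rise was 0.74 ± 0.10 in p110β-line controls (5.0e-05). Of 26 Rag, GATOR and amino acid sensing genes, 5 rose and 8 fell in p110α-line controls, and 5 rose and 2 fell in p110β-line controls. Flcn, the folliculin subunit that activates RagC and RagD, rose by 0.66 ± 0.12 (0.000668) and by 1.23 ± 0.11 (2.5e-07). Bmt2, the S-adenosylmethionine sensor SAMTOR, rose by 0.95 ± 0.15 in p110α-line controls (0.000137) and was the 1 gene of that list called in fasted M-p110αKO against controls, at -0.72 ± 0.16 (0.0136). It was also the 1 gene of that list whose response differed between the lines' controls, by -0.94 ± 0.23 (0.0334). Of 14 tested cap-binding genes, 4 rose and 1 fell in p110α-line controls and 6 rose and 2 fell in p110β-line controls. Eif4e, the target of the 4E-binding proteins, was called as lower in both and in the knockouts of both lines. Its fall was 0.53 ± 0.09 on the log2 scale in p110α-line controls (0.000268). Mknk2, a kinase of eIF4E, rose by 0.91 ± 0.11 in p110α-line and 1.29 ± 0.14 in p110β-line controls (7.9e-06 and 2.7e-06). List medians ranged from -0.20 to 0.18 in these 2 comparisons.

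Lists of genes under factors known to act on the 8 were counted in the same way. Of 12 FoxO factors and muscle targets, 10 rose in p110α-line controls, 9 in M-p110αKO, 9 in p110β-line controls and 11 in M-p110βKO, with medians of 1.32, 0.76, 1.27 and 1.63. In fasted M-p110αKO 4 of the 12 were lower than in controls, among them Fbxo32 (atrogin-1) at -0.80 ± 0.12 (adjusted p = 0.00148) and Trim63 (MuRF1) at -1.38 ± 0.24 (0.00402), the atrophy ubiquitin ligases. The other 8 were not called and ran from -0.80 (Foxo1) to 0.26 (Map1lc3b). Of the members described above as FoxO-inducible, Sesn1 gave -0.47 ± 0.14 (0.0545) and Sesn3 0.22 ± 0.13 (0.308) in that comparison, neither a call. Eif4ebp1, which rose with fasting in M-p110αKO and in controls, gave 0.07 ± 0.23 (0.898) there. Of 9 tested ATF4 genes (8 in the p110β line), 1 rose and 1 fell in p110α-line controls and 3 rose in p110β-line controls. Atf4 itself rose in both, by 0.51 ± 0.10 (0.000907) and 0.57 ± 0.13 (0.00328). Of 8 tested p53 targets (7 in the p110β line), 3 rose in p110α-line controls, while 2 rose and 1 fell in p110β-line controls. Cdkn1a, the cell cycle inhibitor p21, rose by 2.04 ± 0.17 (3.2e-07) and 1.95 ± 0.34 (0.000367).

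Of the 10 glucocorticoid-responsive genes, 2 rose in p110α-line controls and 9 in p110β-line controls, with 3 rising and 1 falling in M-p110αKO and 9 rising in M-p110βKO. The list medians were 0.43 and 0.47 in the p110α line and 1.43 and 1.84 in the p110β line, controls first. Mt1, a metallothionein, rose from 9.53 ± 1.07 (SD, n = 3) to 90.9 ± 6.79 CPM (n = 3) in p110β-line controls (3.25 ± 0.19, adjusted p = 1.7e-09) and stood at 17.7 ± 7.82 and 23.8 ± 9.68 CPM (n = 4 each) in p110α-line controls (0.44 ± 0.34, 0.346). Cebpd, a transcription factor of the C/EBP family, rose by 3.11 ± 0.41 (2.2e-05) and by 1.33 ± 0.19 (7.0e-05). Nr3c1, the glucocorticoid receptor, was lower in fasted M-p110αKO than in controls, at -0.65 ± 0.17 (0.0269), and was the 1 gene of the list called there. The line difference of the response in controls was called in 4 of the 10 (Per1, Cebpd, Mt1 and Mt2, of which Per1 was named after its values were seen), all larger in the p110β line, against 1.56% of all genes. The lists were chosen with earlier results of these data known, so that share does not measure chance for them, and no conclusion is drawn from the order of the lists. The median line difference was 0.88 for this list, 0.51 for the ATF4 list, 0.24 for the cap-binding list, 0.22 for the FoxO list, 0.20 for the mTORC1 core and TSC list, 0.15 for the Rag and GATOR list and -0.11 for the p53 list, beside -0.02 over all genes. Outside the glucocorticoid-responsive list, Bmt2 was the 1 gene of these lists called in that comparison. The labels do not give the hour of sampling or hormone levels, and the part of either in the Ddit4 result was not tested.

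**Figure D4:**
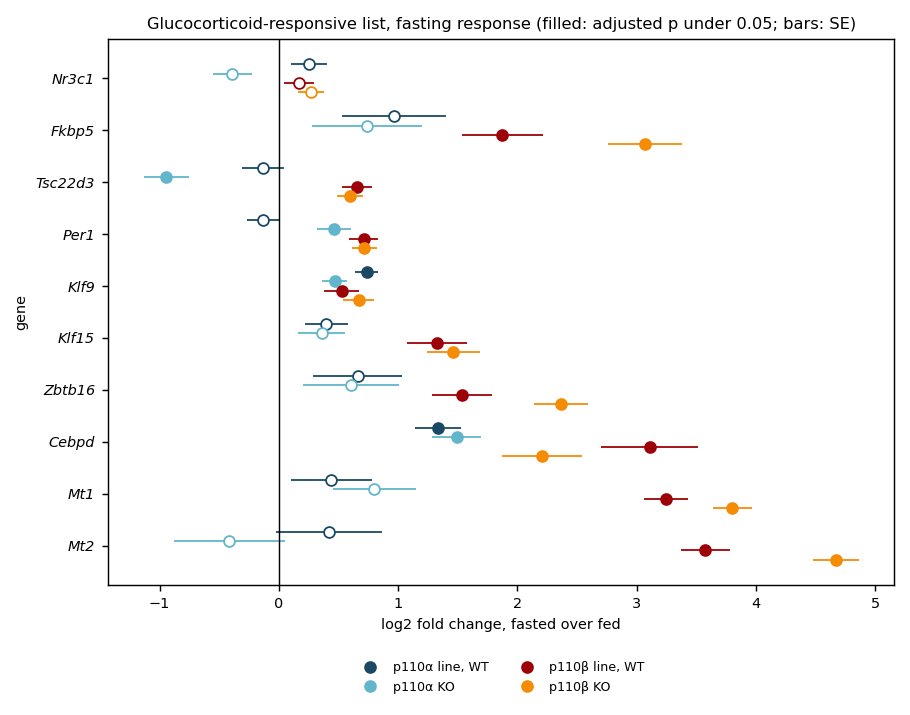
Log2 fold change of fasted over fed mice for the 10 genes of the glucocorticoid-responsive list in the 4 pairs of groups (points, filled where the adjusted p is under 0.05), with SE as bars. All genes but Nr3c1, the receptor itself, are filled above 0 in both p110β pairs, and Klf9 and Cebpd are filled in all 4 pairs.

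Genes with the closest profile over the 29 libraries were sought among 10862 genes by the root mean square difference of centred log2 CPM. Ddit4 had Arrdc3 (0.55), Pde4d (0.56) and Ankrd33b (0.61), against an SD of 1.05 for Ddit4 itself. Sesn1 had Spsb1 (0.35), Slc7a2 (0.36) and Rassf4 (0.36) with an SD of 1.14, and Eif4ebp1 had Tacc2 (0.35), Gabarapl1 (0.35) and Ulk1 (0.40) with an SD of 1.01. Ddit4l had Smtnl2 (0.37), Slc16a10 (0.37) and Zfp423 (0.40) with an SD of 0.62. Sesn3 lay nearest to Ibtk (0.20), Cyb5r4 (0.24) and Klhdc10 (0.25), with an SD of 0.53, and Eif4ebp2 to Cacna1s (0.16), March6 (0.17) and Vps13d (0.17), with an SD of 0.43. The scarce Sesn2 lay 0.28 from Slc7a6 and 0.30 from Mta2 with an SD of 0.49, and Castor1 lay 0.31 to 0.32 from Slc25a5, Ephx1 and Rasa3 with an SD of 0.40.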

How the data were processed

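RNA of TA muscle was extracted with Trizol from each mouse, and the 8 groups were taken from the labels. The labels name both an mRNA library kit and HTG EdgeSeq, a targeted probe assay, for these libraries, and which of them gave the counts was not settled here. The authors aligned reads with STAR to GRCm38 and counted them with featureCounts of Subread, and deposited unnormalized counts for 48023 genes. Neither tool versions nor the annotation release or strand setting of the counting is stated in the sources used here. Symbols, positions and exon lengths came from GENCODE M21 (47310 identifiers matched, 713 did not), in which no exon of another gene overlaps an exon of the 8. Promoter sequences are RefSeq's.

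Counts were analysed in R 4.3.3 with edgeR 4.0.16: filterByExpr (min.count 10, min.total.count 15), TMM factors, and the quasi-likelihood F test with Benjamini-Hochberg adjustment over 12433 genes (p110α line), 12249 (p110β line) or 12760 (all groups, for comparisons of lines). SEs were derived from each fold change and its F statistic. No count model is stated in the study's methods, so each line was fitted alone with 1 coefficient per group. Alternatives were DESeq2 1.42.0, limma-voom (limma 3.58.1), DESeq2 size factors, upper-quartile factors, 2 other filters, other libraries in the fit, a spline on GC content and on length, and omission of each library in turn. The joint omission of libraries 23 and 24 and 3 comparisons of the lines were added after seeing the data. The scripts were tested on simulated data. Chi-square per degree of freedom was 3.92 to 31.0 in 39 pairs of libraries within groups, so no library was a copy of another in its own group. Pairs across groups were not part of this check.

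The 8 genes and the gene lists were chosen with earlier results of these data known. All 8 were named, and of each pathway list up to 3 called genes with the lowest adjusted p in each of the p110α-line comparisons and in fasting of p110β-line controls. Where a list had at most 3 called genes, any of them could be named. The 3 nearest genes were sought among those averaging 1 or more in log2 CPM, and 1 of them is not reported here.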

Additional observations from a re-analysis of the deposited data

Results flagged for a closer look

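Among 40 sets of 4 libraries (5 groups by 8 genes), 2 held 1 library far from the other 3, where chance flags about 1 set in 20. Eif4ebp1 was at 27.4 CPM in library 4, a fed p110α-line control, against at most 13.4 CPM in the other 3, and Eif4ebp2 was at 66.0 CPM in library 27, a fasted M-p110βKO, against at most 49.1 CPM.

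The fasting response differed between the lines, by edgeR's test of the difference itself, for Ddit4 in controls (2.26 log2 units larger in the p110β line) and, in the knockouts, for Ddit4 (2.38), Sesn1 (1.20) and Castor1 (1.34). The Sesn1 call was lost in limma-voom and on omission of 7 single libraries. In the p110β line 7 of 7 fasted libraries lay above all 7 fed ones for Ddit4 and Sesn1. Every fasted library of the p110α line also lay above every fed one for Sesn1, while for Ddit4 they overlapped. Line and genetic background cannot be told apart in these comparisons.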

How the results depend on the processing

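Of 28 called results of the 8 genes, 427 of 463 alternatives kept direction and call, 36 lost the call and 0 turned the direction. Of 84 results that were not called, 51 of 1513 alternatives gave a call in the same direction and 1 gave a call in the opposite one: Ddit4l in fasted M-p110βKO, whose values on omission of 1 library ran from -0.40 to 0.87, the latter without library 25. Ddit4 and Eif4ebp1 kept each call they had in fasting under every alternative, as did Sesn1. Of 128 alternative group levels, 0 moved by more than 1 SD. No scaling moved the median of all genes by over 0.1.

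Counts of called genes that moved by more than 1.5 times were as follows. Fed M-p110αKO gave 1 in place of 0 without a filter or in DESeq2. Fasted M-p110αKO gave 0 in place of 1 with upper-quartile factors, other libraries in the fit, the GC content correction or omission of any 1 library (0 to 0), 2 in DESeq2 or limma-voom and 3 without a filter. Fasting in M-p110αKO gave 2 to 4 on omission of 1 library, against 4, with 2 without library 6. The p110α-line interaction gave 3 and fed M-p110βKO 1 without a filter, each against 0. Fasted M-p110βKO gave 0 to 1 on omission of 1 library. The line difference in controls, 1 gene, was 4 without a filter, 3 in DESeq2 and 1 to 2 on omission of 1 library. In knockouts it was 5 without a filter, against 3. Between fasted controls it was 4 without a filter, 1 without libraries 23 and 24 and 2 to 4 on omission of 1 library, against 2. Other counts moved less, with 3 to 6 for fasting in M-p110αKO, 4 to 6 in p110β-line controls and 5 to 7 in M-p110βKO over the settings that do not leave out 1 library. The causes were not tested. Sesn2 and Castor1 hold at most 71 reads per library, which limits their precision.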
